A study of Mus musculus with 18 samples.

Results

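The clustered protocadherin genes were followed in mESCs (mouse embryonic stem cells) depleted of Stag1, a subunit of cohesin. Members were all genes of the deposited expression table whose symbol begins with Pcdha, Pcdhb, Pcdhga, Pcdhgb or Pcdhgc and goes on with a number. This gave 49 of 18659 genes, of which 9 were Pcdha, 18 were Pcdhb and 22 were Pcdhg (12 Pcdhga, 7 Pcdhgb and 3 Pcdhgc). No gene there had the symbol Pcdha4, Pcdha6, Pcdha7, Pcdhb5, Pcdhb9, Pcdhb10 or Pcdhb13. Counts, shares and medians of a cluster cover only the members found.

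Male E14 mESCs grown on gelatin in serum with LIF were transfected with siRNA for 24 h, and total RNA depleted of rRNA was sequenced. Control cells received a scrambled siRNA (si scr). Stag1 was targeted with the siRNA pool SP, with the pool 3p, with the single duplex 5p, or with SATS, an enzymatically cut esiRNA to the 5′ UTR that arises from the SATS promoter of Stag1. Replicate sets 2 and 3 each held 1 library of si scr, SP, 3p, 5p and SATS. Set 2 also held 1 library of untreated cells, and set 3 held 1 library of cells given luciferase esiRNA. Set 1 held 1 si scr library and 3 SP libraries (1a, 1b and 1c). The labels do not say whether replicates were separate cultures, so p-values measure only the spread between these libraries. All libraries came from the same cell line and none carried a genetic deletion.

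Clustered protocadherins are adhesion proteins of the cell surface, best known in the brain, where each neuron uses its own small selection of them. In the alpha and gamma clusters every variable exon has its own promoter and is spliced to constant exons shared by the cluster, whereas each beta gene stands alone. CTCF and cohesin bring distant enhancers to the chosen promoters, and DNA methylation keeps the others silent. The C-type members at the end of the alpha and gamma clusters are used more widely than the alternate members before them.

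In GENCODE release 21 on GRCm38 (mm10), all 49 members were matched to a gene on the + strand of chromosome 18. Pcdha10 was matched by its RefSeq position, because GENCODE gives the gene there the name Pcdha11, as it does the next gene. The Pcdha members spanned chr18:36930184-37187661, the Pcdhb members chr18:37264938-37524479 and the Pcdhg members chr18:37661793-37841873. Each Pcdha gene shared 2860 to 2864 exonic bases with other members, which are the constant exons at the 3′ end. Of the Pcdhg genes, 18 shared 2116 to 2119 bases, and Pcdhgb1, Pcdhga4, Pcdhgb4 and Pcdhga8 shared 2224 to 3157, which is more than the constant exons. Among the beta genes, Pcdhb21 and Pcdhb22 overlap by 455 bases. Levels between genes are therefore given below per kb of exon that a gene does not share. How reads in the shared exons were counted is not given in the sources used here. The first exons of downstream members lie inside the introns of upstream members, and unspliced RNA of an upstream member cannot be told apart from RNA of a downstream member in these counts.

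A value below is a normalized read count, that is, the reads of a gene divided by the size factor of its library. In sets 2 and 3 a library had 32137666 to 45660840 reads on genes, of which 1932 to 2971 fell on members, and 3 reads, the smallest number counted as detected, were worth 1.06 to 1.44 normalized reads. Set 1 was shallower, with 9023224 to 14040830 reads in a library, and Rn45s, the rRNA precursor, took 69.2% to 79.1% of them. There 163 to 248 reads fell on members and 3 reads were worth 9.65 to 24.2 normalized reads. The results below rest on sets 2 and 3 for that reason. Intervals on reads cover counting error only. The pluripotency markers were present throughout. Pou5f1, a core pluripotency factor and the highest of the 7, had a mean of 8134 normalized reads. Among 8 neural markers, Tubb3 had a mean of 965, Map2 of 246 and Pax6 of 158, while Neurog2, Dcx and Gfap had means under 10.

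Stag1 was measured first as the check of the labels. In set 2 it stood at 1876 normalized reads in si scr, 406 in SP, 392 in 3p, 441 in 5p and 947 in SATS, and untreated cells had 1619. In set 3 it stood at 2113 in si scr, 371 in SP, 365 in 3p, 401 in 5p and 1051 in SATS, and the luciferase control had 2199.8. Every knockdown library was below every control library, and SATS left more Stag1 RNA than the other siRNAs. On the log2(value + 1) scale the difference from si scr was -2.36 ± 0.12 (SE) for SP, -2.39 ± 0.12 for 3p and -2.24 ± 0.12 for 5p, with adjusted p-values of 0.00116, 0.00103 and 0.0017 (limma, Benjamini-Hochberg over 16490 genes, n = 2 per group). For SATS the difference was -0.996 ± 0.12 with a limma adjusted p of 0.633, which became 0.0013 when the replicate set was fitted as a block.

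Among the members, the gamma cluster held nearly all reads. Protocadherin genes that are not members have no part in the shares given here. In sets 2 and 3 together, 27205 of 28692 member reads (94.8%) came from Pcdhg, 1004 (3.5%) from Pcdhb and 483 (1.68%) from Pcdha. All 22 Pcdhg members were detected in every one of the 12 libraries, while 4 of 9 Pcdha and 10 of 18 Pcdhb members had no read in at least 1 library. The median level was 9.69 normalized reads per kb in Pcdhg, against 0.43 in Pcdha and 0.266 in Pcdhb. The lowest gamma member, Pcdhga6, at 2.72 per kb, was still above the highest beta member, Pcdhb22, at 2.07 per kb, and above Pcdha12, the highest alpha member, at 1.94 per kb.

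Pcdhgc3, the first of the C-type genes of the gamma cluster, was the most abundant member. It had a mean of 320.4 normalized reads ± 97.9 (SD, n = 12 libraries), or 94.8 per kb, and 9170 reads in all, which was 33.7% of the reads of its cluster. The other C-type genes, Pcdhgc4 and Pcdhgc5, were at 4.26 and 4.12 per kb (rank on the per kb scale 20 and 21 of 49), so this level was not shared by its neighbours. The alternate member Pcdhga11 followed with 86.8 ± 13.9 normalized reads (32.9 per kb), then Pcdhga1 with 60.7 ± 6.76 (18.7 per kb), Pcdhga2 with 43.8 ± 9.59 (17.0 per kb) and Pcdhga10 with 37.5 ± 8.87 (14.3 per kb). The ranges of Pcdhgc3 and Pcdhga11 over the 12 libraries did not overlap on this scale, and those of Pcdhga1, Pcdhga2 and Pcdhga10 did.

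The Pcdhgb members were more even, from 5.45 per kb (Pcdhgb5) to 11.1 per kb (Pcdhgb7), whereas the Pcdhga members ran from 2.72 to 32.9 per kb. The median was 12.8 per kb over Pcdhga and 6.47 per kb over Pcdhgb. Pcdhgb8 is listed in GENCODE as a polymorphic pseudogene, and it was measured at 15.7 ± 2.11 normalized reads.

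In the alpha cluster, Pcdha12 had 4.79 ± 2.68 normalized reads and Pcdha10 4.66 ± 2.37, and they gave 138 and 132 of the 483 reads of the cluster. Pcdha11, Pcdha5 and Pcdha9 had means of 1.87, 1.70 and 1.39. In the beta cluster, Pcdhb22, the gene nearest the gamma cluster, held 365 of 1004 reads with a mean of 12.7 ± 2.94 normalized reads. By normalized reads Pcdhb2 followed with 3.86, then Pcdhb14 with 2.89, Pcdhb3 with 2.02 and Pcdhb18 with 1.92. Per kb these were 1.37, 0.332, 0.533 and 0.381, and Pcdhb20, at 0.521 per kb, stood above Pcdhb14 and Pcdhb18. The remaining alpha and beta members were near the limit of detection. Pcdha1, Pcdha2, Pcdha8, Pcdhb1, Pcdhb4, Pcdhb6, Pcdhb7, Pcdhb11, Pcdhb12, Pcdhb15 and Pcdhb21 fell below the minimum of 10 normalized reads summed over the 10 libraries tested, which left 38 members with a test (6 Pcdha, 10 Pcdhb and 22 Pcdhg).

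Pcdha1 and Pcdha8 had no read in 6 and 5 of the 12 libraries in which Pcdha12 always had reads. Reads in the constant exons were therefore not assigned to every gene that shares them.

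**Figure D1:**
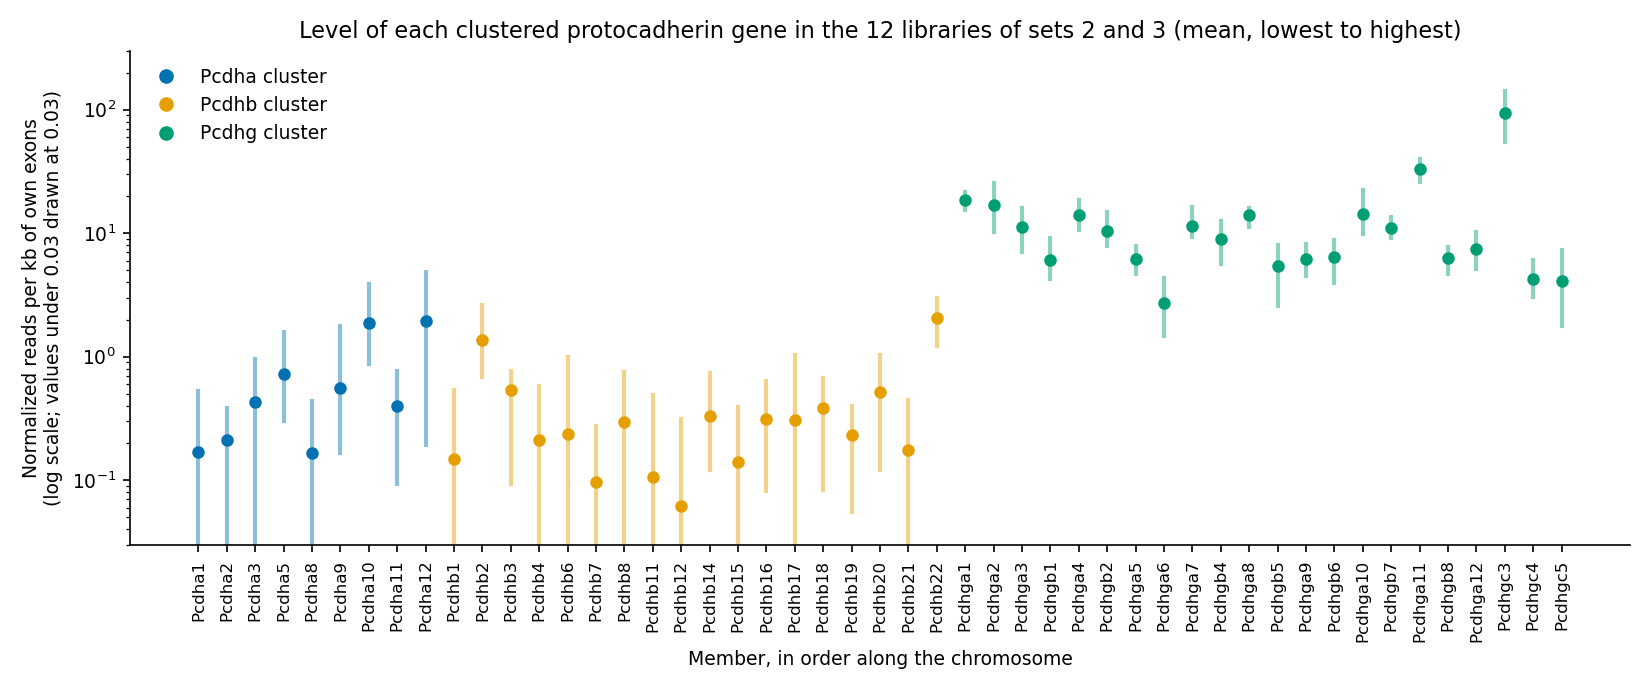
Level of each of the 49 members, in order along chromosome 18, as normalized reads per kb of exon not shared with other members (log axis). Points are means over the 12 libraries of sets 2 and 3 and bars run from the lowest to the highest library, with values under 0.03 drawn at 0.03. The 22 Pcdhg genes all have higher means than the Pcdha and Pcdhb genes, and Pcdhgc3 is at the top with 94.8 per kb.

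The knockdowns asked whether protocadherin levels change when Stag1 is depleted. Of the 38 members tested, none passed an adjusted p of 0.05 in SP, 3p, 5p or SATS or in the mean of the 4 knockdowns, by limma without or with the replicate block, by edgeR on the recovered reads without or with the block, or by DESeq2. Over all 16490 genes, the shares called by limma were 0.00606% for SP, 0.00606% for 3p, 0.0121% for 5p, 0% for SATS and 0.00606% for the mean of the knockdowns. With the replicate block they were 0.746%, 0.285%, 2.37%, 2.64% and 0.109% in the same order. Without it, limma did not call Stag1 in SATS either, so that fit can miss a change as large as this.

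At an unadjusted p under 0.05, limma gave 1 member in SP (2.49% of all genes), 0 in 3p (1.73%), 0 in 5p (3.63%), 2 in SATS (3.94%) and 1 in the mean of the knockdowns (2.05%). With the block it gave 2 members in SP (12.5% of all genes), 1 in 3p (10.4%), 4 in 5p (15.7%), 3 in SATS (18.8%) and 2 in the mean of the knockdowns (12.2%). Without the block, edgeR gave 1, 0, 0, 2 and 1 members in the same order (2.47%, 1.64%, 3.41%, 3.94% and 2.01% of all genes). With it, edgeR gave 1, 1, 4, 2 and 2 (12.5%, 10.4%, 15.5%, 19.2% and 12.4%). DESeq2 gave 1, 0, 0, 1 and 1 (2.19%, 1.44%, 3.17%, 3.83% and 1.76%). These shares of the 38 members lay near or below those of all genes.

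Pcdhgc3 was not called in any knockdown. In set 2 it had 354 normalized reads in si scr, 478 in SP, 415 in 3p, 378 in 5p, 381 in SATS and 439.6 in untreated cells. In set 3 it had 235 in si scr, 233 in SP, 262 in 3p, 185 in 5p, 229 in SATS and 257 in the luciferase control. The 4 knockdown libraries were all above si scr in set 2, as was the untreated library, and lay on both sides of si scr in set 3. Every library of set 3 was below every library of set 2. The log2 difference of the mean of the knockdowns from si scr was 0.08 (95% interval -0.82 to 0.97, limma). With the replicate block the interval narrowed to -0.12 to 0.28. For the mean of the knockdowns, a fall as large as that of Stag1 in any of them lay outside both intervals. A single knockdown has a wider interval, which with the block was -0.38 to 0.13 in 5p.

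Pcdhga11 had 88.1 normalized reads in si scr, 96.7 in SP, 101 in 3p, 105 in 5p and 94.5 in SATS in set 2. In set 3 it had 68.2, 68.4, 86.8, 83.7 and 74.4 in the same order. It had the largest positive difference among the 3 members with a mean of at least 50 normalized reads, at 0.18 on the log2 scale (95% interval -0.28 to 0.64 in limma, -0.05 to 0.40 with the block). The untreated library, at 106, was above all libraries of set 2, and the luciferase library, at 70.1, was within the range of set 3.

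Pcdhga1 stood at 59.6 in si scr, 57.9 in SP, 60.3 in 3p, 70.6 in 5p and 54.7 in SATS in set 2, and at 56.3, 65.8, 70.0, 69.9 and 50.2 in set 3. The SATS library was the lowest of the siRNA libraries in both sets. The mean of the knockdowns differed from si scr by 0.10 (95% interval -0.23 to 0.42 in limma, -0.16 to 0.36 with the block).

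**Figure D2:**
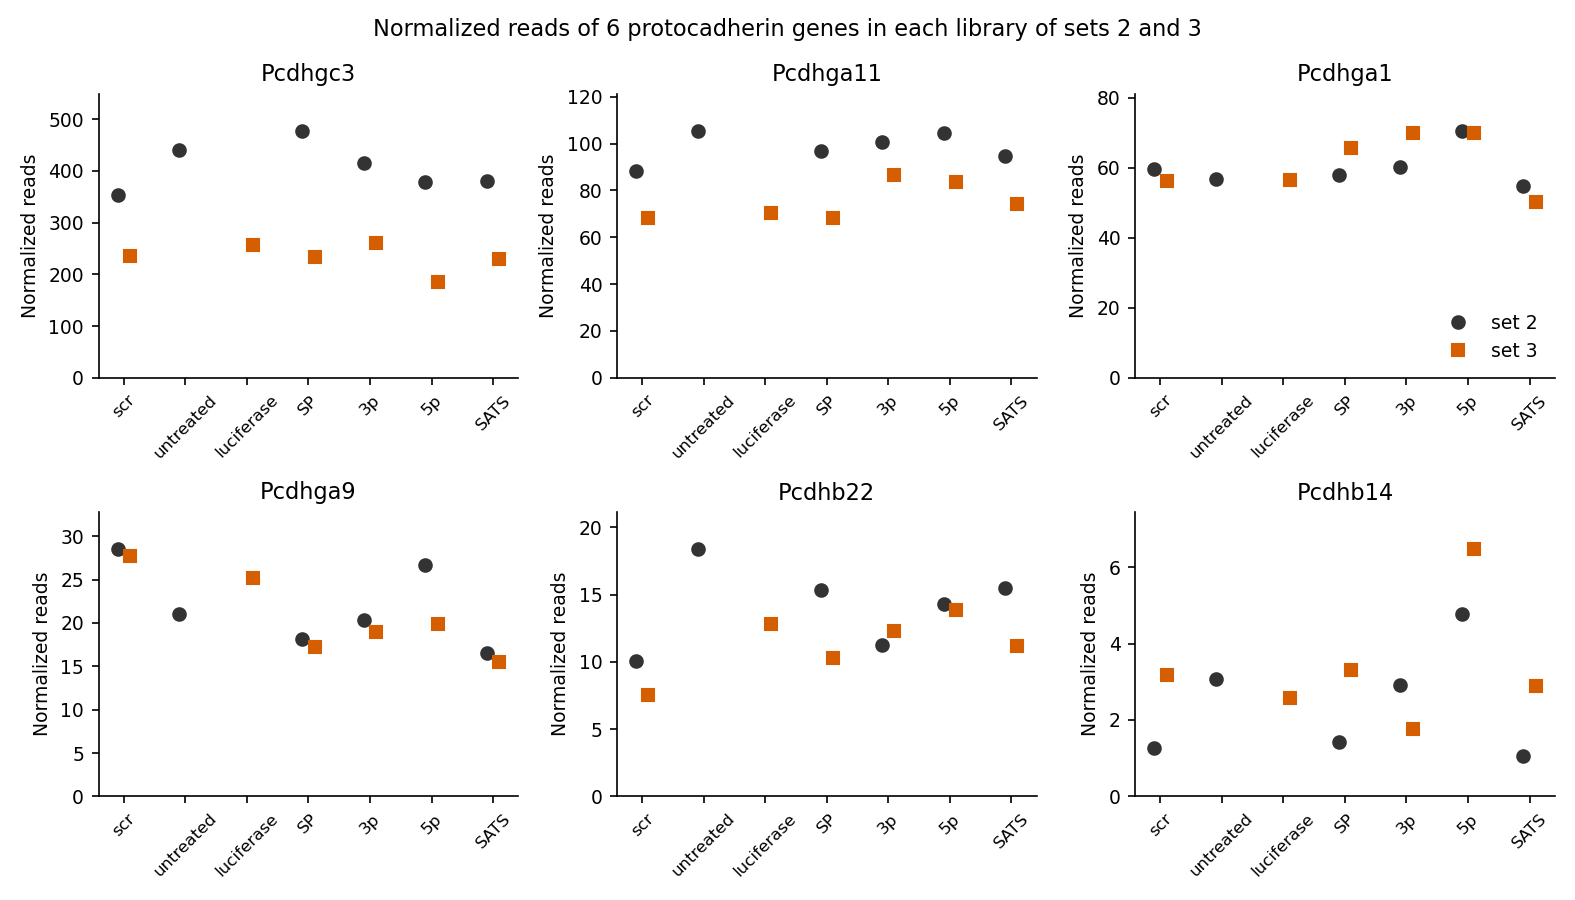
Normalized reads of 6 members in each library of sets 2 (circles) and 3 (squares), by condition, on axes from 0. Pcdhgc3 and Pcdhga11 separate by set rather than by siRNA, and the knockdown libraries of Pcdhga9 and Pcdhb22 lie to one side of both si scr libraries, with both other controls among those of Pcdhga9 and the untreated library above those of Pcdhb22.

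Pcdhga9 and Pcdhb22 were the only members of the 38 tested whose 8 knockdown libraries all lay to one side of both si scr libraries. They are named after their values were seen. Of all genes, 1.58% had all 8 knockdown libraries below both si scr libraries and 1.22% had them all above, against 1 of 38 members in each direction.

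Pcdhga9 had 28.5 normalized reads in si scr, 18.2 in SP, 20.4 in 3p, 26.7 in 5p and 16.6 in SATS in set 2, and 27.8, 17.3, 18.9, 19.9 and 15.5 in set 3, on 38 to 70 reads per library. The untreated library had 21.01 and the luciferase library 25.2, both inside the range of the knockdowns. The mean of the knockdowns was lower than si scr by -0.55 ± 0.18 (SE), with an adjusted p of 1.00 in limma and 0.199 with the block. The lowest adjusted p of any member in any knockdown was that of Pcdhga9 in SATS with the block, at 0.0653 for a difference of -0.77 ± 0.21 (SE).

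Pcdhb22 had 10.1 normalized reads in si scr, 15.3 in SP, 11.2 in 3p, 14.3 in 5p and 15.5 in SATS in set 2, and 7.54, 10.3, 12.3, 13.9 and 11.2 in set 3. Untreated cells had 18.4, more than any knockdown, and the luciferase library had 12.8. The log2 difference of the mean of the knockdowns was 0.51 ± 0.24 (SE), with an adjusted p of 1.00 in limma and 0.334 with the block.

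Summed over each cluster, the knockdown libraries ran from 90.03% to 114% of si scr in the gamma cluster, from 112% to 195% in the beta cluster and from 55.6% to 134% in the alpha cluster. The Pcdhg sum was 1029 normalized reads in si scr of set 2 and 793 in set 3. As a percent of the si scr library of the same set, it was 107% ± 6.72 (SD, n = 2) in SP, 107% ± 3.74 in 3p, 108% ± 7.58 in 5p and 93.7% ± 5.14 in SATS. The untreated library was at 111% and the luciferase library at 107% of si scr, and only the SATS mean was below si scr.

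Within the gamma cluster, the 5p and SATS libraries lay on opposite sides of si scr for the alternate genes. The Pcdhga sum was 119% and 115% of si scr in 5p in sets 2 and 3 and 93.2% and 86.4% in SATS, against 106% in untreated cells and 105% in the luciferase control. The Pcdhgb sum was 116% and 112% in 5p and 91.3% and 87.1% in SATS, against 93.6% and 109% in the other controls. The Pcdhgc sum was 106% and 80.1% in 5p and 105% and 97.0% in SATS.

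Among the reads of the gamma cluster, the share of Pcdhgc3 was lowest in 5p in both sets. In set 2 it was 32.3% (95% Wilson interval 30.5 to 34.2) in 5p, 34.4% (32.6 to 36.3) in si scr, and 38.0% to 41.7% in SP, 3p, SATS and untreated cells. In set 3 it was 22.6% (20.7 to 24.6) in 5p, 29.6% (27.7 to 31.7) in si scr, and 28.8% to 32.1% in the other 4 libraries. The intervals of 5p and si scr overlapped in set 2 and did not in set 3. In set 1, on 162 to 243 Pcdhg reads per library, the share was 12.5% (8.4 to 18.2) in si scr and 17.3% to 21.6% in the SP libraries.

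The beta cluster was highest in 5p. Its sum was 27.7 normalized reads in si scr of set 2 (66 reads, 95% Poisson interval 51.0 to 84.0) and 53.9 in 5p (113 reads, 93.1 to 136). In set 3 it was 27.8 in si scr (70 reads, 54.6 to 88.4) and 48.1 in 5p (104 reads, 85.0 to 126). This was 184% ± 15.2 (SD, n = 2) of si scr in 5p, against 116% in SP, 119% in 3p and 112% in SATS. Untreated cells were at 136% and the luciferase control at 126%, so part of the distance between 5p and si scr was also present between other controls and si scr. Without Pcdhb22 the beta sum in 5p was 225% and 169% of si scr, and the other controls were at 109% and 109.9%.

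In 5p, 9 of 10 tested beta members, 18 of 22 gamma members and 4 of 6 alpha members had a positive log2 difference, and the median over the 38 was 0.23, against 0.01 over all genes. A positive difference was held by 52.5% of all genes. Without the 5p library of set 2 the median over the members tested was 0.22, and without that of set 3 it was 0.39. No member passed the test of 5p on its own. The largest difference was that of Pcdhb14, with 10 and 14 reads in 5p and 3 and 8 reads in si scr, at 1.10 ± 0.51 (SE) and an adjusted p of 1.00 in limma and 0.23 with the block. The log2 differences of Pcdhb18, Pcdhb2 and Pcdhb20 in 5p were 0.98, 0.87 and 0.86. In the gamma cluster the largest were those of Pcdhgb1, at 0.56, and Pcdhga6, at 0.49, and neither was called.

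In SATS, 25 of the 38 members had a negative difference, with a median of -0.14 against -0.00 over all genes. Of all genes, 49.3% had a positive difference in SATS. The lowest value was that of Pcdhb3, -1.04 ± 0.37 (SE), with an adjusted p of 1.00 in limma and 0.211 with the block. Without the SATS library of set 3 the median over the members tested was -0.0008, and without that of set 2 it was -0.24. In SP 20 members were higher and 18 lower, with a median of 0.02, and in 3p 23 were higher and 15 lower, with a median of 0.07. Of all genes, 50% were higher in SP and 49% in 3p. All 4 knockdowns were set against the same si scr libraries, so their differences are not independent of each other.

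The alpha cluster was measured on 23 to 62 reads per library. Its sum was 64.2% ± 6.33 (SD, n = 2) of si scr in SP, 75.0% ± 24.6 in 3p, 112% ± 30.7 in 5p and 70.8% ± 21.5 in SATS. Untreated cells were at 107% and the luciferase control at 65.9%, which covers the means of 3p and SATS, and the Poisson interval of the SP library of set 2 reached 16.5 normalized reads, above the lower bound of 13.4 in si scr.

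**Figure D3:**
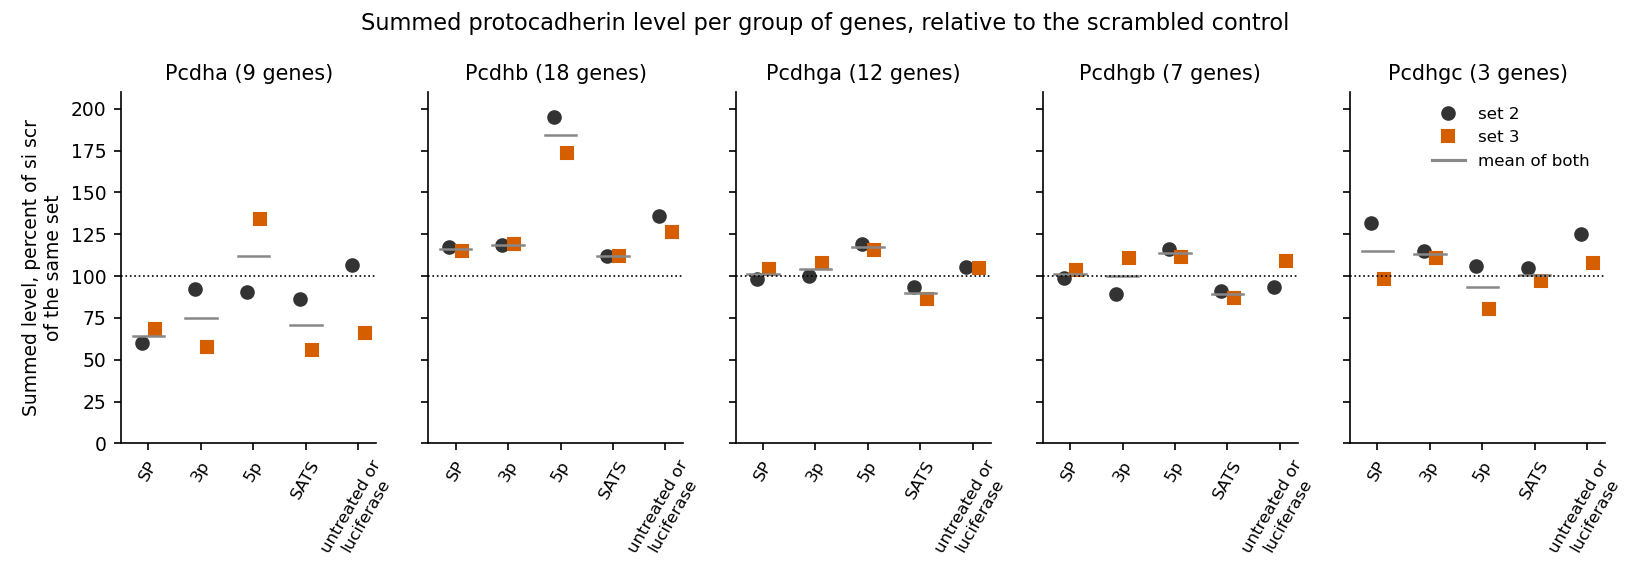
Summed normalized reads of Pcdha, Pcdhb, Pcdhga, Pcdhgb and Pcdhgc genes as a percent of the si scr library of the same set, by condition, with set 2 as circles, set 3 as squares and grey lines for the mean of both. The 5p libraries of the beta cluster stand at 195% and 173%, and the untreated and luciferase libraries at 136% and 126%.

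**Figure D4:**
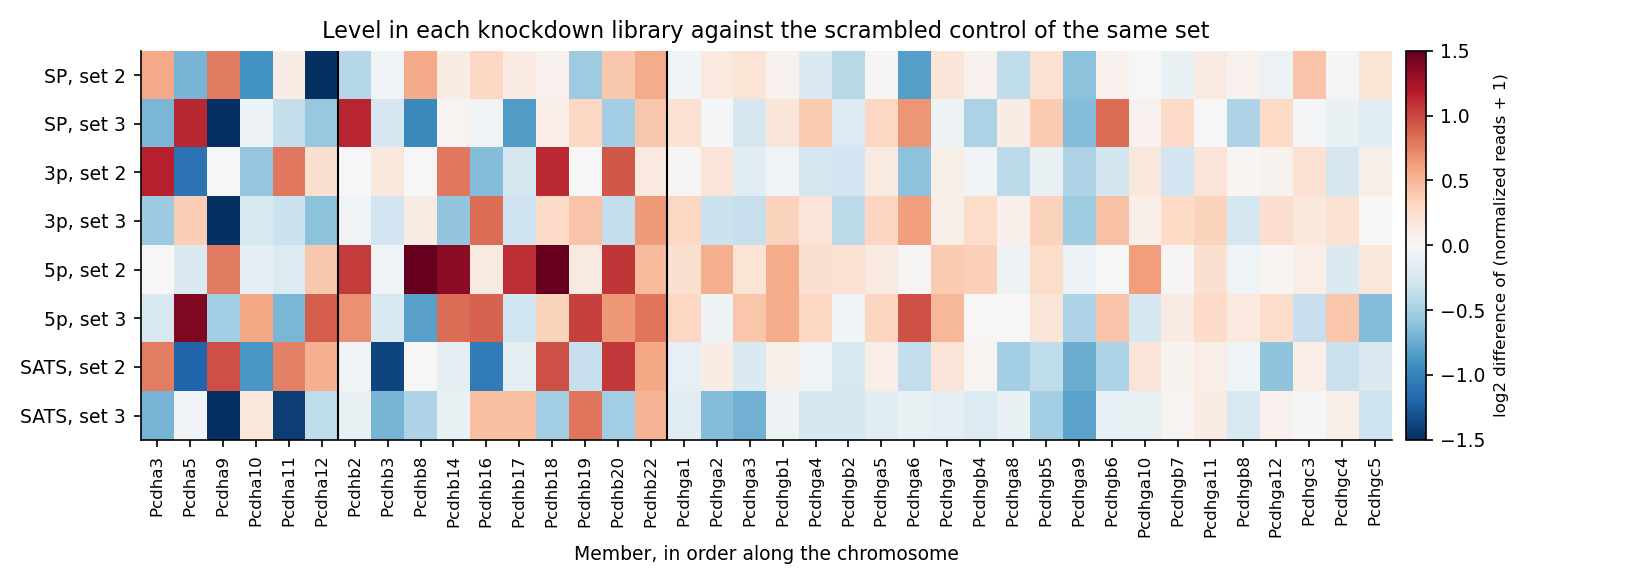
log2 difference in normalized reads (plus 1) of each of the 38 tested members, in order along the chromosome, between each knockdown library and the si scr library of its set. Colours are clipped at 1.5 in both directions, and black lines separate the alpha, beta and gamma clusters. The 5p rows are mostly red over the beta and gamma genes and the colours of alpha and beta genes are uneven between sets, while Pcdhga9 is blue in SP, 3p and SATS.

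Set 1 allowed SP to be compared once more. There the Pcdha sum rested on 1 to 3 reads per library and the Pcdhb sum on 0 to 3 reads, so neither cluster could be compared. The Pcdhg sum was 1179 normalized reads in si scr (176 reads, Poisson interval 151 to 204), 1109 in SP library 1a (236 reads), 782 in 1b (243 reads) and 1305 in 1c (162 reads). These are 94.1%, 66.3% and 111% of si scr, so the SP libraries of set 1 lay on both sides of their control. With the 3 SP libraries averaged and the sets fitted together, 0 of 30 tested members passed limma without or with the block, with 0 at an unadjusted p under 0.05 either way, and edgeR with the block gave 0 adjusted and 1 unadjusted. Over the 15970 genes tested, limma called 0% without the block and 0% with it, and 0.526% and 5.85% passed an unadjusted p of 0.05. Stag1 had a difference of -2.15 ± 0.20 (SE) in this comparison, with an adjusted p of 0.225 in limma and 0.0534 with the block, so it was not called either.

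Genes of factors that act on these promoters were read in the same fits. Of 30 genes on a list of cohesin subunits, cohesin loaders and release factors, CTCF and DNA methylation and chromatin silencing factors, 29 were tested, and Stag1 was called in SP, 3p, 5p and the mean of the knockdowns and no gene in SATS. Ctcf differed from si scr by -0.03 ± 0.11 (SE) and Rad21, the kleisin subunit of cohesin, by 0.00 ± 0.07 in the mean of the knockdowns. With the block, Stag2, which can take the place of Stag1 in cohesin, was lower in 5p (-0.40 ± 0.08, adjusted p = 0.0229) and higher in SATS (0.52 ± 0.08, adjusted p = 0.0154). In SATS the block also called Stag1, the lower genes Ehmt1 (-0.32) and Tet1 (-0.38), and the higher genes Esco1 (0.50) and Esco2 (0.40), the acetyltransferases of cohesin.

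Of 14 other protocadherins on a second list, 12 were tested and 0 were called in any knockdown by limma without or with the block. The same held for the 13 tested of 15 genes around the clusters, except that Taf7, a general transcription factor gene between the beta and gamma clusters, rose in SATS with the block (0.42 ± 0.09, adjusted p = 0.0311).

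The calls among the protocadherins came from the comparison of the replicate sets. Sets 2 and 3 hold the same 5 conditions, so the sets could be compared within conditions. Of the 38 members, 12 were called at an adjusted p under 0.05, all lower in set 3 (limma, n = 5 conditions per set). Over all genes, 51.6% were called and 27.4% were called lower in set 3, so that 12 of 38 members was below the share of all genes called and near the share called lower. Each set is 1 group of libraries, so these p-values compare these libraries and not sets in general.

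The called members were 10 of 22 Pcdhg genes (4 of 12 Pcdhga, 4 of 7 Pcdhgb and 2 of 3 Pcdhgc), 1 of 6 Pcdha genes and 1 of 10 Pcdhb genes. All 7 Pcdhgb and all 3 Pcdhgc members had a negative difference, while Pcdhga had 5 positive and 7 negative. The median difference was -0.81 in Pcdhgc, -0.32 in Pcdhgb and -0.11 in Pcdhga, against -0.01 over all genes.

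Pcdhgc3 ran from 354 to 478 normalized reads in the 5 libraries of set 2 (median 381) and from 185 to 262 in set 3 (median 233), a difference of -0.81 ± 0.08 (SE) on the log2 scale with an adjusted p of 9.6e-07 in limma. Pcdhgc5, a C-type member known for its use in the brain, ran from 24.3 to 33.0 in set 2 (median 30.3) and from 9.71 to 15.9 in set 3 (median 14.0), a difference of -1.08 ± 0.15 (SE, adjusted p = 4.55e-05 in limma). The sets did not overlap for either gene.

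Pcdhga11 ran from 88.1 to 105 in set 2 and from 68.2 to 86.8 in set 3 (-0.35 ± 0.08 on the log2 scale). Pcdhga2 ran from 44.5 to 65.4 and from 26.4 to 42.0 (-0.49 ± 0.13), and Pcdhga10 from 37.3 to 58.2 and from 25.9 to 33.0 (-0.50 ± 0.14). These 3 genes also had no overlap between the sets. In all, 5 of 38 members had all libraries of set 3 below all of set 2, against 16.3% of all genes.

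Pcdhgb5 ran from 22.9 to 36.7 in set 2 and from 11.9 to 23.2 in set 3, so that the sets overlapped narrowly (-0.68 ± 0.13, adjusted p = 0.000806 in limma). Pcdha10 ran from 3.83 to 7.97 and from 2.20 to 4.63 (-0.66 ± 0.23, adjusted p = 0.0268). Pcdhb17 ran from 1.25 to 4.77 and from 0 to 1.44 (-0.94 ± 0.34, adjusted p = 0.0313), on 0 to 10 reads per library. The calls of Pcdha10 and Pcdhb17 were lost when some conditions were left out.

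Pcdhga1 did not follow, with 54.7 to 70.6 normalized reads in set 2 and 50.2 to 70.0 in set 3 (0.04 ± 0.10). As sums, Pcdhg in set 3 was 73.8% of set 2, Pcdhgc 57.0%, Pcdhgb 77.0% and Pcdhga 89.2%. The Pcdhgc and Pcdhgb sums did not overlap between the sets and the Pcdhga sums did. The Pcdhb sum was at 96.6% and the Pcdha sum at 113%, both with overlap.

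Pcdhac2, the C-type gene at the end of the alpha cluster and not a member by the naming rule, went the other way, from 2.39 to 3.36 normalized reads in the 5 libraries of set 2 to 4.69 to 8.73 in set 3 (0.94 ± 0.22, adjusted p = 0.00256 in limma). Of the 12 other protocadherins tested, 7 were higher and 2 lower in set 3, and of the 13 genes around the clusters 3 were higher and 6 lower.

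Marker sums of other cell types moved with the set, in a comparison that called 51.6% of all genes (limma, adjusted p under 0.05). Only the neural sums overlapped between the sets, and narrowly. The sum of the 4 trophectoderm markers was 13227 to 18661 normalized reads in set 2 and 3209.5 to 7107 in set 3, and that of the 4 fibroblast markers 8537 to 12073 and 2615 to 3826. The 4 mesoderm markers went from 267 to 309 in set 2 and from 359 to 558 in set 3. The 7 pluripotency markers went from 26820 to 29678 and from 18204 to 22934, the 8 neural markers from 1395 to 1652 and from 1036 to 1398, and the 5 primitive endoderm markers from 249 to 326 and from 182 to 237. Of these lists, Elf5, Sox17, Mesp1 and the neural markers Neurog2, Dcx and Gfap had means under 10. The highest genes of the trophectoderm and fibroblast lists were Krt8 and Vim, which other cells also use. The part of cell makeup, culture or sequencing in the difference between the sets was not tested, and in bulk RNA fewer cells using a gene cannot be told apart from less RNA per cell.

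**Figure D5:**
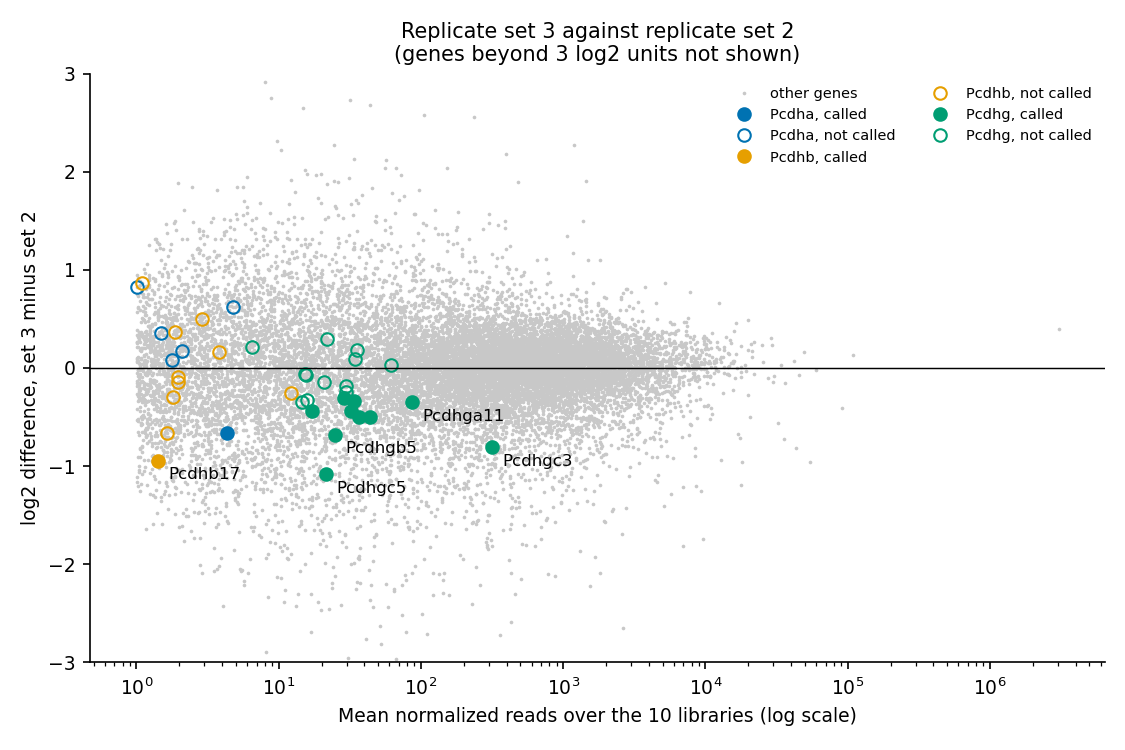
log2 difference between set 3 and set 2 (limma, over 5 conditions) against the mean normalized reads (log axis) of each gene tested, with other genes in grey and members in the colour of their cluster, filled where called at an adjusted p under 0.05. All 12 called members lie below 0, with Pcdhgc3 at -0.81 and Pcdhgc5 at -1.08, and they lie within the spread of the grey points.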

How the data were processed

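The series labels 18 samples, and 16 have a column in the table used. The 2 labelled for 2i culture are not analysed here. Per the methods, alignment to mm10 used hisat2 and gene counting used featureCounts, run under Nextflow. The authors deposited a normalized signal for all sets, each count divided by the size factor that DESeq2 1.14.1 gave its library. Whole reads were recovered for 100% of the values (tolerance 0.001). Reads were paired-end or single-end, and which holds for each library is not given in the sources used here. A second deposited table, CPM of set 1 from edgeR 3.16.5, was not used.

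For the comparisons, limma 3.58.1 (lmFit and eBayes with trend, R 4.3.3) was run on log2(value + 1) of the 10 libraries of si scr and the knockdowns in sets 2 and 3. Genes summing to less than 10 over the libraries of a fit were left out. A call means a Benjamini-Hochberg adjusted p below 0.05 among all genes tested. The added 1 shrinks the differences of genes with low values. Sets were compared with condition as a covariate. For SP over 3 sets, libraries 1a, 1b and 1c entered as their average. The fits were tested on simulated data in which only genes with a mean of at least 10 normalized reads were changed. No Pcdha member and 1 Pcdhb member reach that mean, so the recovery of changes at lower levels was not tested. The spread between simulated libraries was set by hand and not estimated from these libraries. Recovery was required of the fit without the block only where no difference between sets was simulated. Members and gene lists were chosen with earlier results of these data known. Sums over members carry no test.

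Set numbers in the labels were taken to pair the samples, since samples with the same number deviated together, with correlations of 0.703, 0.742 and 0.705 in SP and si scr of the 3 sets (13477 genes) and of 0.785 to 0.89 in sets 2 and 3. The fit without a block is given first, and the block beside it where calls differ.

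Named members were the 5 with the highest mean per cluster, at most 5 called in each direction per comparison, and per cluster the largest rise and fall in the mean of the knockdowns among members with a mean of at least 50. Other members are named as examples of a count, chosen after their values were seen. Alternatives were other pseudocounts (0.1 and 10), no filter or a mean of at least 10, edgeR 4.0.16 (quasi-likelihood) and DESeq2 1.42.0 on recovered reads, TMM scaling without Rn45s, other controls, and leaving out each library. Gene positions are from GENCODE release 21. Poisson, Wilson and t intervals are at 95%. 1 marker of the neural list is not reported here and was left out of its sum.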

Additional observations from a re-analysis of the deposited data

Results flagged for a closer look

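The group of 5 SP libraries was examined for single libraries far from the rest. This covered 23 series of values (named members, Pcdhga9, Stag1 and the 3 cluster sums). The limit used flags about 1 in 20 series of normally distributed values, and that rate does not hold for counts near 0. Pcdhb18 in the SP library of set 3 had 2.21 normalized reads (6 reads), against 0 to 0.479 in the other SP libraries. Pcdhb17 in the SP library of set 2 had 1.92 normalized reads (4 reads), with 0 reads in the other SP libraries. Both rest on few reads. In the libraries of set 1 a single read was worth 3.22 to 8.05 normalized reads, more than either flagged value.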

How the results depend on the processing

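No member was called in SP, 3p, 5p, SATS or the mean of the knockdowns under any alternative run, and the count of members was 0 with the replicate block too, also in SP over 3 sets. In all genes, the block raised the calls from 1 to 123 in SP, 1 to 47 in 3p, 2 to 391 in 5p, 0 to 436 in SATS and 1 to 18 in the mean of the knockdowns, and edgeR with the block gave 134, 50, 397, 550 and 43. For SP over 3 sets, limma called 0 genes and edgeR with the block 66. DESeq2 called 21, 5, 68, 3 and 1 genes in the same order, and with untreated and luciferase libraries as controls limma called 4, 2, 27, 0 and 1. For 5p, each leave-one-out fit called 1 gene. SP library 1a alone for set 1 gave 1.

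Between sets 2 and 3, the 12 called members became 7 of 35 without the condition 5p and 7 of 36 without si scr. Of all genes, 48.8% and 47.6% were called in these fits. Under the other alternatives the count stayed between 9 and 13, with 22 to 38 members tested and 45.2% to 57.6% of all genes called. Leaving out conditions gave 7 to 11. In the fit without 3p 2 of the called members, and in those without SATS and with a pseudocount of 0.1 1 of them, were higher in set 3. Pcdha10 lost its call without 3p (adjusted p = 0.0789, limma), 5p (0.0504) or si scr (0.109), and Pcdhb17 with a pseudocount of 10 (0.0649) or without si scr (0.0501) or SP (0.108). Pcdha12 was called higher without 3p (0.0381) or SATS (0.0435), and Pcdhb14 without 3p (0.0458).

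The log2 ratio of the mean of the knockdowns to si scr was -0.31 for the Pcdha sum, 0.41 for Pcdhb and 0.05 for Pcdhg. It became -0.44 without Pcdha12 and -0.15 as a median over members in Pcdha, and 0.33 without Pcdhb22 and 0.25 as a median in Pcdhb. In single libraries the log2 ratio of the Pcdhb sum to si scr of the same set was 0.96 and 0.79 in 5p. It was 0.16 to 0.25 in SP, 3p and SATS, 0.44 in untreated cells and 0.34 in the luciferase control. Set 1 is too shallow for Pcdha and Pcdhb.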
